A study of Mus musculus with 103 samples.

Results

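The cornified envelope genes Sprr1a, Sprr1b, Sprr2f, Sprr2h, Sprr3, Ivl, Lor, Krtdap and Dmkn were followed over all tissue groups of the study. They are 9 of the 17097 genes that the array measured with a probe set annotated to 1 gene, and they were taken by gene symbol, which gave 10 of 28898 such probe sets. Ivl had 2 probe sets, of which the brighter over all arrays was used, and the other members had 1 each. The probe sets of Sprr2h and Lor are of a class that can hybridise with several transcripts, so their values, and those of the closely related Sprr2 genes in general, are less certain as to gene.

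The data were expression profiles of 103 mouse samples on Affymetrix arrays, deposited as log2 values. The study followed cells expressing Prom1, a surface glycoprotein of many epithelia, by lineage tracing and directed oncogenes to them. The labels give 40 samples of primary cells, 56 primary tumours and 7 metastases. Organs had been dissociated, freed of red and dead cells and sorted with anti-Prominin1 magnetic beads, whereas tumours were dissected and their RNA was extracted from whole tissue with another kit.

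The primary cells came from kidney (4 samples), liver (5), lung (4), prostate (3), salivary gland (3), small intestine (3), stomach (2) and uterus (4), all with no treatment named, from neonatal liver (3), and from liver labelled DDC-treated (9). The primary tumours were squamous cell carcinomas from the perineal (4), perioral (3) and periorbital (1) regions, prostatic adenocarcinomas (8), uterine carcinomas (3), gastric adenocarcinomas (4), gastric adenomas (7), bronchopulmonary adenocarcinomas (2), small (3) and large (5) intestinal adenomas, hepatoblastomas (2) and liver tumours labelled hepatocellular carcinoma/cholangiocarcinoma (14). The metastases were single samples: uterine carcinoma and gastric adenocarcinoma in abdomen and in liver, the liver carcinoma in lung and in intestine, and hepatoblastoma in lung. The sources used here do not give strain, sex, age beyond neonatal, oncogene, driver, or the dose and duration of DDC. They also do not say if replicates were separate animals, and the p-values below then reflect sample-to-sample spread alone, which may be technical. Prom1 itself was 9.81 to 12.19 in kidney, prostate, salivary gland, stomach, uterus and neonatal liver cells, 8.01 to 10.19 in small intestine cells, 5.3 to 6.79 in lung cells and 3.31 to 9.31 in DDC liver cells. In untreated liver cells it was 2.64 to 4.24, close to background, so the label of those samples as Prom1-positive is not borne out by this probe set.

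The cornified envelope is the cross-linked protein shell that replaces the plasma membrane of keratinocytes when they finish differentiating, in epidermis and in other stratified squamous epithelia. Involucrin (Ivl) is an early scaffold of it, loricrin (Lor) is the main component in epidermis, and small proline-rich proteins (Sprr genes) bridge the others, with transglutaminases joining them. Krtdap and dermokine (Dmkn) encode secreted proteins of differentiating keratinocytes. Some members are also known outside such epithelia, as Sprr2f is in the oestrogen-stimulated uterus and Sprr1a is in injured tissue.

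In the RefSeq annotation of GRCm38.p6, Sprr1b, Sprr3 and Sprr1a are consecutive genes on chromosome 3, and Sprr2f and Sprr2h are consecutive on the same chromosome. Ivl is separated from Sprr1a by Sprr4, Lor lies between Pglyrp3 and Prr9, and Dmkn and Krtdap are consecutive on chromosome 7. The promoters of 6 members are printed because these neighbours differed in where they were measured. Sprr1a was high in most tumour groups and Sprr1b and Sprr3 in few, Sprr2f was high in uterus cells and Sprr2h was not, and Krtdap was near background in prostatic and bronchopulmonary tumours in which Dmkn was high. Each line runs from 200 bases before to 20 bases after the transcription start, with capitals on matches to TGANTCA, an AP-1-type motif, and TATAAA.
Sprr1a (chr3:92485862-92486081, minus strand): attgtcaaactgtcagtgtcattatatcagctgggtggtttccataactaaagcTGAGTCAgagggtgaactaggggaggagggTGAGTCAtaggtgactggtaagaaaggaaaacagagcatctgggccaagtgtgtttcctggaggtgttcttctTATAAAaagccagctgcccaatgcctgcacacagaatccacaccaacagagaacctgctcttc
Sprr3 (chr3:92458701-92458920, minus strand): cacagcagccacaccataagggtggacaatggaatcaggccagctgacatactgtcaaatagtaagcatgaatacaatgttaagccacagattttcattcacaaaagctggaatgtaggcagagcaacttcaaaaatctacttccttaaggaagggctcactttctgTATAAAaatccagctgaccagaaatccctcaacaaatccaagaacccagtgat
Sprr1b (chr3:92438760-92438979, minus strand): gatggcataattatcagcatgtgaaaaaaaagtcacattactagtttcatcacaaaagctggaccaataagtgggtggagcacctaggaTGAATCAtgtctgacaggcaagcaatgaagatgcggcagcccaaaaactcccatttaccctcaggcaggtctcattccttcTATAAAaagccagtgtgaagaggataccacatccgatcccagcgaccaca
Sprr2f (chr3:92364987-92365206, plus strand): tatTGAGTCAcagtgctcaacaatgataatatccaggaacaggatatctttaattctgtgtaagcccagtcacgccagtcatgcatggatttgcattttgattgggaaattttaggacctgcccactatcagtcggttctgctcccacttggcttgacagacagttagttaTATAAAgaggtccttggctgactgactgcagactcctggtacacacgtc
Sprr2h (chr3:92385485-92385704, plus strand): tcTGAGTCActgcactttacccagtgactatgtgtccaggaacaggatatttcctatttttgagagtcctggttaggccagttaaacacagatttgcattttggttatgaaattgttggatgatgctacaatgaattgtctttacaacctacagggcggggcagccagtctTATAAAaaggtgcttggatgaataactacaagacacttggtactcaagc
Krtdap (chr7:30787705-30787924, plus strand): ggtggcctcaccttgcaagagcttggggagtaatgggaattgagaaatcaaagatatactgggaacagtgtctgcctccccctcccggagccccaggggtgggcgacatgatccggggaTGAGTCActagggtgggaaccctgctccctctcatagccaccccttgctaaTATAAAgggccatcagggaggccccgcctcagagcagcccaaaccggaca

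Motifs were searched on both strands of 300 bases per promoter, 250 before and 50 after the start, and the motifs did not overlap each other in the printed windows. TGANTCA was present for 8 of the 9 genes, Sprr3 being the exception, and in 7.81% of the 32851 RefSeq promoters of that length. TATAAA was present for 8 of the 9, Dmkn being the exception, and in 13.6% of all promoters, and CCACCC for 6 of the 9 and in 31.5%. From the start site, TGANTCA began at -146 and -116 in Sprr1a, at -111 in Sprr1b, at -197 in Sprr2f, at -198 in Sprr2h and at -81 in Krtdap. A single window per gene was aligned, which for Dmkn was the first of several. The windows of Sprr2f and Sprr2h had 61.9% identity, the highest of all pairs aligned. Those of Ivl and Dmkn had the lowest, 47.4%, close to Lor and Ivl at 47.5%. A match is a description of letters and not a site.

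The members differed in breadth. With a log2 value of 4.1 as the floor, which is the 40th percentile of all values, Sprr1a lay above it in 87 of 103 samples and in the mean of 25 of 29 groups. Dmkn lay above it in 50 samples and 17 groups, Ivl in 39 and 13, and Sprr2f in 39 and 11. Sprr2h (26 samples, 8 groups) and Lor (22 samples, 8 groups) were narrower. Krtdap (15 samples, 7 groups), Sprr3 (13 samples, 6 groups) and Sprr1b (11 samples, 5 groups) were the narrowest. The groups in which Sprr1b had a mean above the floor were the squamous carcinomas of the 3 sites, the uterine carcinomas and their liver metastasis.

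**Figure D1:**
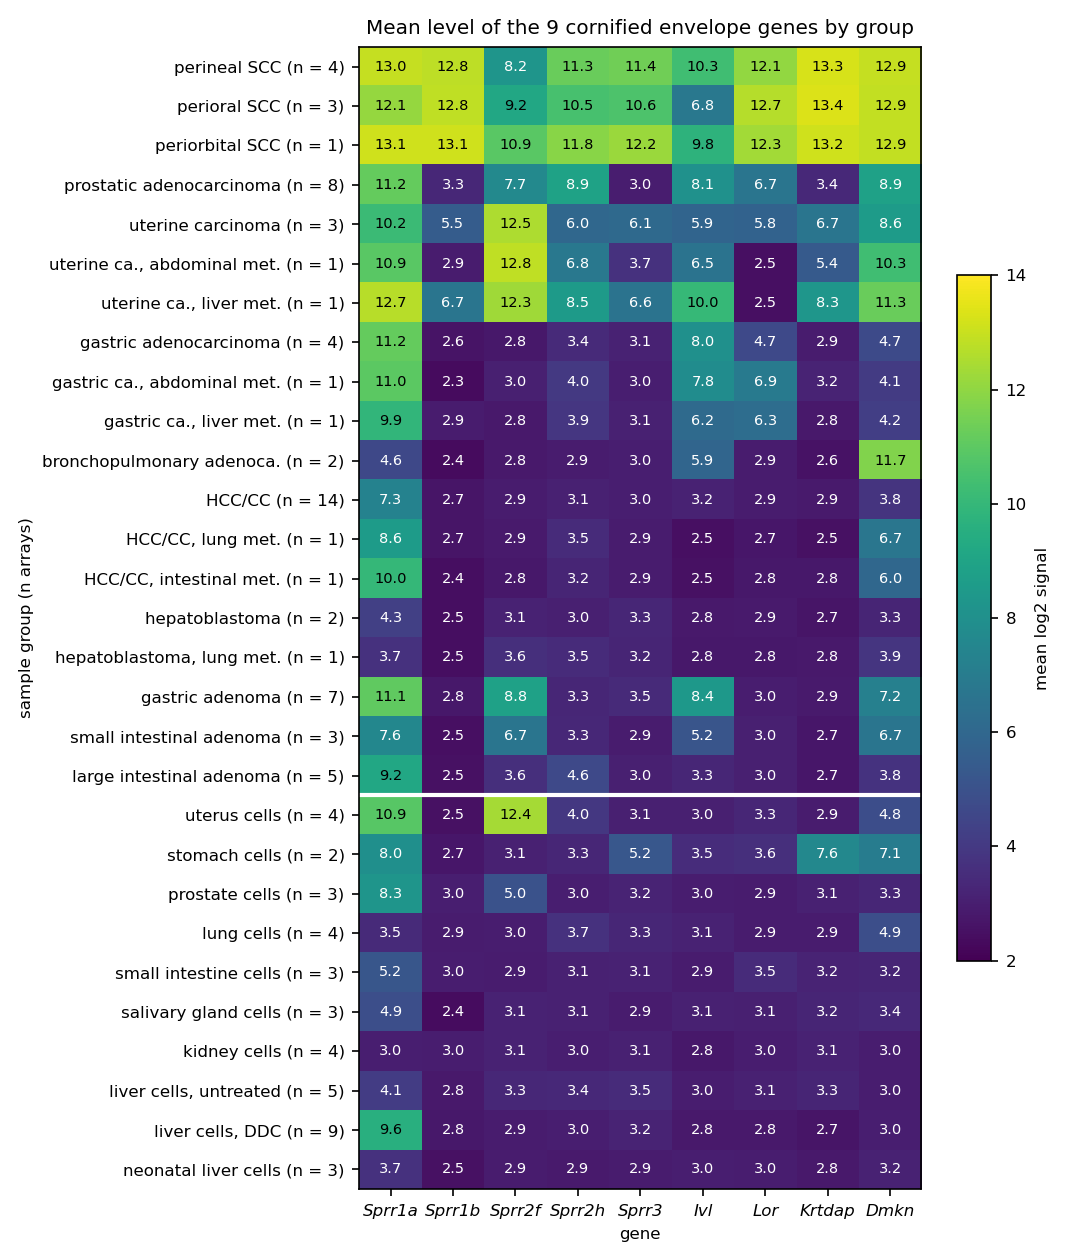
Mean log2 expression (colour scale, 2 to 14) of the 9 genes (columns) in the 29 groups of samples (rows, tumours above the white line and sorted cells below). Sprr1a had a mean above 4.1 in 25 groups and Sprr1b in 5.

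Sprr1a, a small proline-rich gene known from keratinocytes and from injured tissue, could be ordered over the primary cells. Its mean was 10.88 ± 0.88 in uterus (SD, n = 4), 9.55 ± 1.73 in DDC liver (n = 9), 8.27 ± 0.86 in prostate (n = 3) and 7.97 ± 0.76 in stomach (n = 2). It was 5.23 ± 0.71 in small intestine (n = 3), 4.9 ± 0.33 in salivary gland (n = 3), 4.12 ± 0.81 in liver (n = 5), 3.72 ± 0.35 in neonatal liver (n = 3), 3.45 ± 0.22 in lung (n = 4) and 3.02 ± 0.26 in kidney (n = 4). Neighbours in this order overlapped in their samples except stomach, lowest at 7.44, and small intestine, highest at 5.92.

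Among primary tumours, Sprr1a was 12.96 ± 0.15 in perineal (n = 4) and 12.09 ± 0.58 in perioral (n = 3) squamous carcinomas. It was 11.17 ± 0.41 in prostatic (n = 8) and 11.16 ± 1.23 in gastric adenocarcinomas (n = 4), 11.06 ± 0.78 in gastric adenomas (n = 7) and 10.18 ± 2.44 in uterine carcinomas (n = 3). Lower means were 9.19 ± 1.06 in large (n = 5) and 7.56 ± 1.45 in small (n = 3) intestinal adenomas, 7.31 ± 1.55 in liver carcinomas (n = 14), 4.58 ± 1.1 in bronchopulmonary adenocarcinomas (n = 2) and 4.3 ± 1.51 in hepatoblastomas (n = 2). Neighbouring groups overlapped, apart from the perineal and perioral tumours.

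Across the 29 group means, Sprr1b and Sprr3, and Sprr3 and Krtdap, were most alike, with Pearson's r of 0.98 for each pair. Sprr1b and Krtdap reached 0.96, whereas Sprr2f and Sprr2h reached 0.67, Sprr1a and Ivl 0.73, and Sprr2f and Lor, the least alike, 0.35. Of these means 8 are single samples, and many lie at background, so the few squamous groups weigh most in these coefficients. Over 13875 genes, the nearest profiles to Sprr1b were those of Calm4 (r = 0.99), Tmprss11d (0.986) and Gm94 (0.982). Tmprss11d (0.987) and Gm94 (0.983) were nearest to Sprr3, then Sprr2j-ps (0.975), and Gm94 (0.977), Lgals7 (0.971) and Tmprss11d (0.966) to Krtdap. Prss27 (0.973), Lypd3 (0.954) and Krt6a (0.939), a keratin of wounded epidermis, were nearest to Sprr2h. Lce1f (0.952), Cd109 (0.939) and Rptn (0.938) were nearest to Lor, of which Lce1f and Rptn encode epidermal envelope proteins. The nearest to Dmkn were Tnfrsf18 (0.906), Bnipl (0.895) and Il1rl2 (0.882), and to Sprr2f Padi4 (0.906), Acod1 (0.9) and Dlx5 (0.895). Ivl had Anxa8 (0.869), S100a16 (0.858) and S100a14 (0.848), and Sprr1a had Eif5a (0.835), Anxa8 (0.831) and Mre11a (0.829).

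The 7 perineal and perioral squamous carcinomas were compared with internal carcinomas, taken as the mean of the prostatic, uterine, gastric, bronchopulmonary and liver carcinoma groups. Each of the 9 members was higher in the squamous carcinomas than this mean, by 2.37 to 9.63 on the log2 scale. In this comparison 10.6% of the 12410 genes tested were called higher and 13.7% lower, and the median over all genes was -0.12 against 6 for the members. A call needed an adjusted p under 0.05 in limma's moderated test (Benjamini-Hochberg over all tested genes) and a log2 difference of at least 1. Overlap of samples, here and below, was examined for the members alone, and its share over all genes was not counted. The squamous label was borne out by the basal keratin Krt14 at 12.98 to 13.27 in perineal and 13.37 to 13.53 in perioral tumours, and by Trp63, the basal keratinocyte factor, at 9.41 to 10.39 and 9.73 to 10.55. In bulk tumours, fewer cells of a type and less RNA per cell cannot be told apart.

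Among the bridging proteins, Sprr1b was 12.8, 12.66, 13.16 and 12.58 in the perineal and 12.82, 13.15 and 12.58 in the perioral tumours. No internal carcinoma reached these values, the highest being a uterine carcinoma at 10.11, and the difference was 9.53 ± 0.396 (SE, limma adjusted p = 4.8e-26). Sprr3, the small proline-rich gene of oral and oesophageal epithelium, was 11.63, 11.15, 11.9 and 10.82 in perineal and 10.97, 11.87 and 9.06 in perioral tumours. Its difference was 7.36 ± 0.374 (limma adjusted p = 1.8e-22), and the same uterine carcinoma, at 10.11, lay above the lowest perioral tumour.

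Sprr2h was 11.37, 11.32, 11.22 and 11.11 in perineal and 11.31, 11.02 and 9.18 in perioral tumours, 6 ± 0.439 above the internal carcinomas (limma adjusted p = 2e-16). Sprr2f was scattered in the perioral tumours, at 8.87, 8.53, 7.76 and 7.79 in perineal and 11.08, 9.97 and 6.58 in perioral samples. Sprr2f differed by 2.98 ± 0.52 (limma adjusted p = 4.2e-06) and Sprr1a by 3.64 ± 0.521 (7.6e-08), and for both the squamous and internal samples overlapped. In Sprr2f every uterine carcinoma, at 12.79, 12.69 and 12.04, lay above every perineal and perioral tumour. The gastric, bronchopulmonary and liver carcinoma groups had Sprr2f means of 2.8, 2.84 and 2.93. The internal group means averaged 8.88 for Sprr1a and 5.75 for Sprr2f, against 3.29 for Sprr1b.

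Among the scaffold and main components, Lor was 12.69, 11.56, 12.85 and 11.15 in perineal and 12.7, 13.11 and 12.24 in perioral tumours. All lay above every internal carcinoma, and the difference was 7.78 ± 0.49 (limma adjusted p = 8.2e-19). Ivl was 10.09, 10.66, 9.95 and 10.59 in perineal but 6.2, 7.64 and 6.58 in perioral tumours, within the range of the internal carcinomas. Its difference, 2.37 ± 0.483 (limma adjusted p = 5.4e-05), was the smallest of the members.

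Both secreted products were uniform in the squamous carcinomas. Krtdap was 13.57, 13.36, 13.22 and 13.03 in perineal and 13.56, 13.28 and 13.23 in perioral tumours, 9.63 ± 0.407 above internal carcinomas (limma adjusted p = 9.8e-26). Dmkn was 12.97, 12.93, 12.91 and 12.95 in perineal and 12.88, 12.99 and 12.8 in perioral tumours, 5.37 ± 0.66 above (limma adjusted p = 2e-09). No internal carcinoma overlapped them in either gene. The highest value of any probe set was 14.36, and compression of differences near that top was not tested.

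**Figure D2:**
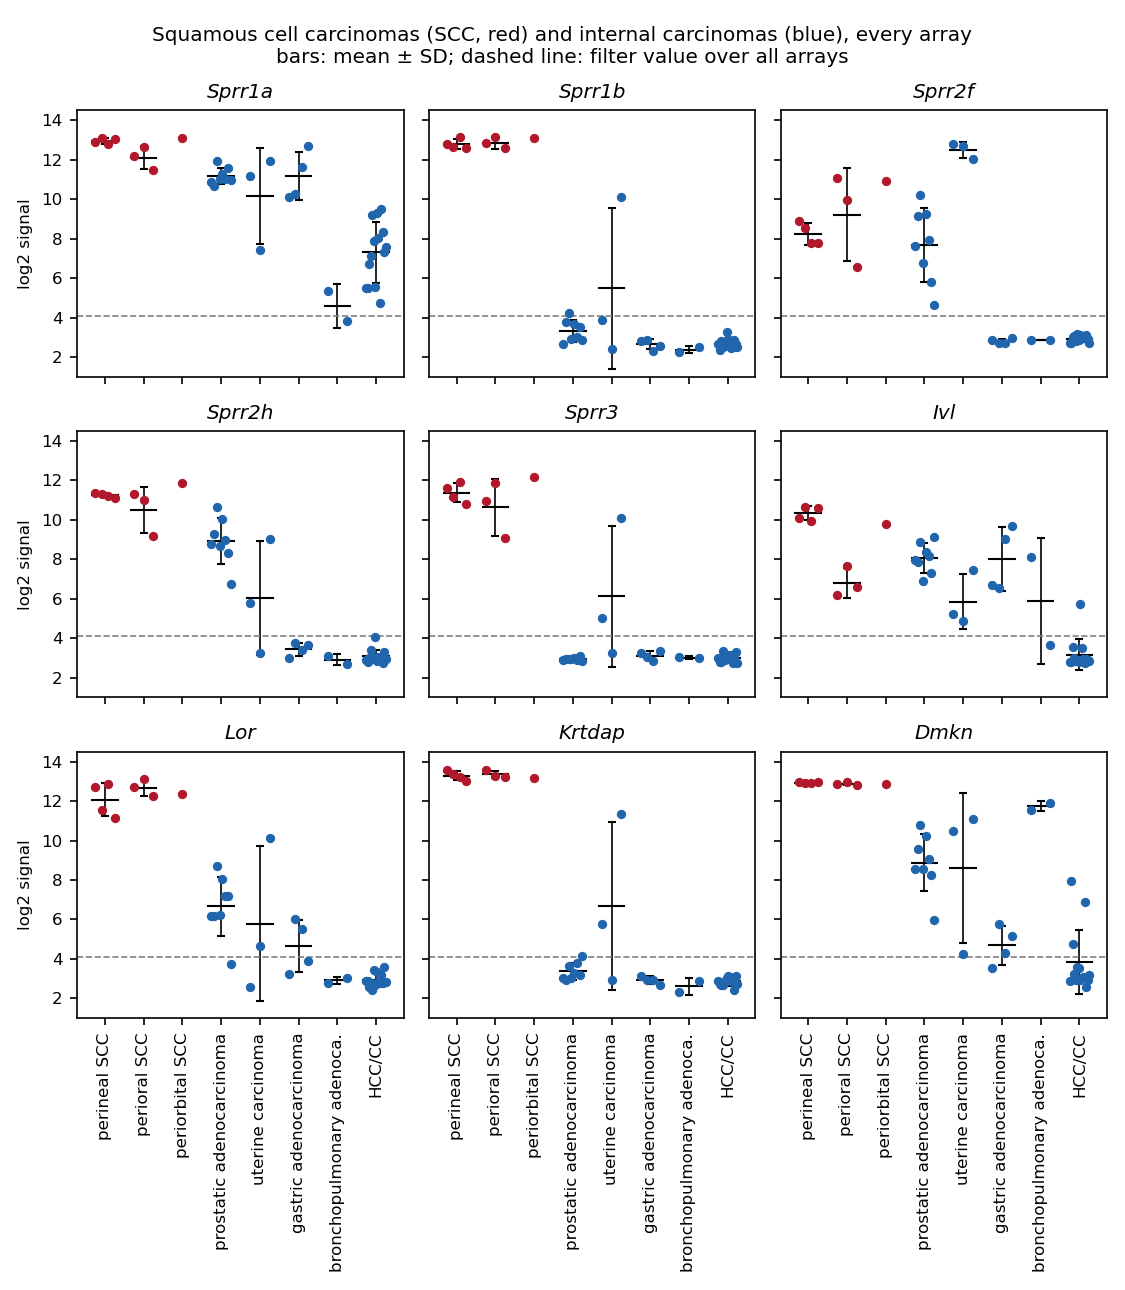
Log2 expression of each of the 9 genes (y axis) in every squamous (red) and internal (blue) carcinoma sample by tumour group (x axis), with bars for the mean ± SD and a dashed line at the floor of 4.1. All squamous samples lie above all internal ones for Sprr1b, Lor, Krtdap and Dmkn, while prostatic tumours reach 11.94 for Sprr1a and 4.21 for Sprr1b.

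The other genes of cornification stood with the members in this comparison. Of 47 other envelope structure genes, 33 could be tested and 31 were called higher (median 6), including the filaggrin gene Flg (8.55 ± 0.288) and its relatives Hrnr (8.28 ± 0.268) and Rptn (8.33 ± 0.437). Of 18 tested enzymes and inhibitors of the envelope 16 were higher, as was Spink5 (7.45), an inhibitor of epidermal proteases. All 13 tested squamous keratins were higher, led by Krt6b (9.65 ± 0.506) and Krt1 (9.01 ± 0.336), and so were 15 of 17 transcription factors, with Trp63 at 6.36 ± 0.264, and 13 of 14 adhesion genes, with the desmosomal Dsc1 at 8.39 ± 0.329. No gene of these lists was called lower. Hair follicle genes (6 of 7 higher) and skeletal muscle genes (5 of 5 higher, median 3.8) moved in the same direction, and their part in the members' values was not tested.

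Perineal and perioral tumours were then compared with each other. Ivl was the 1 member called of 9 tested, 3.51 ± 0.829 higher in perineal tumours (limma adjusted p = 0.0048), where 1.55% of 10688 genes were called higher and 1.79% lower. The second Ivl probe set ran the same way, with 7.71 to 9.05 in perineal and 4.01 to 5.06 in perioral tumours. Without the first perioral tumour the Ivl difference was 3.21 with an adjusted p of 0.051. The other members had adjusted p-values of 0.73 or more. Among them Sprr1a, at 0.86 ± 0.895 (limma adjusted p = 0.79), was not called, although its samples did not overlap between the sites. Of the other lists, 4 of 17 enzymes were lower in perineal tumours, with the transglutaminase gene Tgm3 at -3.4 ± 0.436, 3 of 33 structure genes were lower and 1 higher, and Krt2, a keratin of upper epidermis, was -4.14 ± 0.586. Hair follicle genes were lower in 5 of 7 (median -3.56).

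Prostatic adenocarcinomas held a subset of the members. Against the mean of the other internal carcinomas, Sprr1a, Sprr2f, Sprr2h, Ivl, Lor and Dmkn were called higher and none was called lower of 9 tested, where 7.4% of 12070 genes were called higher and 6.64% lower. Sprr1b, Sprr3 and Krtdap were not called, but without the second uterine carcinoma Sprr3 was called lower (-1.22, limma adjusted p = 0.0018). The comparison shares its samples with the squamous one. Some single groups came close to or exceeded the prostatic mean. Gastric adenocarcinomas had 11.16 for Sprr1a against 11.17, and 8 for Ivl against 8.07. Uterine carcinomas had 12.51 for Sprr2f against 7.66, and bronchopulmonary adenocarcinomas 11.73 for Dmkn against 8.88. For Sprr2h and Lor the prostatic means, 8.94 and 6.67, were the highest, followed by 6.03 and 5.8 in uterine carcinomas.

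Sprr2h was lowest at 6.75, median 8.87 and highest 10.66 in the 8 prostatic tumours, and 5.07 ± 0.439 above the other internal carcinomas (limma adjusted p = 3.2e-13). Sprr1a ranged from 10.67 over a median of 11.01 to 11.94, with a difference of 2.86 ± 0.522 (adjusted p = 2.3e-05). Sprr2f was the most variable, from 4.61 over 7.78 to 10.19, and differed by 2.39 ± 0.52 (adjusted p = 0.00029). In contrast, Sprr1b stayed between 2.65 and 4.21 and Sprr3 between 2.86 and 3.09 in every prostatic tumour.

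Ivl ranged from 6.9 over 8.05 to 9.13, 2.34 ± 0.483 above the other internal carcinomas (limma adjusted p = 0.00015), and Lor from 3.73 over 6.7 to 8.7, 2.6 ± 0.49 above (3.9e-05). Dmkn ranged from 5.99 over 8.82 to 10.81 and differed by 1.67 ± 0.661 (adjusted p = 0.044), a call that was lost in 11 of 31 fits that left out 1 sample. Krtdap was between 2.92 and 4.15. Lor was above the floor in all but the eighth prostatic tumour and Sprr2h in all 8, whereas Krtdap and Sprr1b passed it in 1 tumour each.

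The third prostatic tumour was highest in Sprr1a, Sprr2f, Sprr2h, Lor and Dmkn, and the eighth was lowest in Sprr2f, Sprr2h, Lor and Dmkn but highest in Ivl (9.13). The eighth also had Sbp, a secretory product of the mouse prostate, at 12.79, against at most 3.12 in the others, and the basal marker Krt5 at 8.3. The part of such cells in the members' values was not tested.

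The squamous keratins had 7 of 12 called higher and 1 lower in prostatic tumours, including the mucosal keratin Krt4 (4.83 ± 0.56). Of other structure genes 9 of 27 were higher and 1 lower (median 0.78, all genes 0.03), led by Tchh (5.97 ± 0.344), the trichohyalin gene of hair follicles and hard epithelia, and Sprr2a1 (5.82 ± 0.424). Transcription factors were higher in 11 of 16 with none lower, among them Gata3 (6 ± 0.28), and adhesion genes in 6 of 11 with 1 lower. Enzymes were higher in 4 of 13 with 1 lower, including Cers3 (3.69), which makes long ceramides of the barrier. Smooth muscle genes (4 of 4), seminal vesicle genes (3 of 3) and prostate luminal genes (2 of 4) were also higher, and their part was not tested.

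Against Prom1-sorted prostate cells, 5 of 6 tested members were called higher in the prostatic tumours and none lower, where 12.4% of 10981 genes were called higher and 8.69% lower. Sprr2h, Ivl, Lor and Dmkn passed the floor through the tumours alone, since their means in the cells were below it, so a difference there was bound to appear. Tumours and cells differed in dissociation, sorting and RNA kit, and handling and group cannot be told apart. The Gapdh index of RNA integrity was 0.38 to 0.95 in the tumours and 0.98 to 1.09 in the cells, without overlap. The actin index was 0.61 to 1 and 0.91 to 1.14, and the part of RNA integrity was not tested.

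Sprr1a was 8.37, 7.36 and 9.07 in the cells and 10.67 to 11.94 in the tumours, a difference of 2.9 ± 0.33 (limma adjusted p = 9e-05). Sprr2h was 2.92, 2.94 and 3.13 in the cells, and was 5.94 ± 0.622 higher in tumours (adjusted p = 5.3e-05). Ivl was 3.52, 2.86 and 2.55 in the cells and 5.09 ± 0.43 higher in tumours (adjusted p = 1.5e-05). No tumour overlapped the cells in these genes.

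Lor was 2.92, 2.94 and 2.9 in the cells, 3.75 ± 0.796 below the tumours (limma adjusted p = 0.0037), and Dmkn was 3, 3.73 and 3.12, 5.6 ± 0.776 below (0.00031). Sprr2f, at 3.6, 4.64 and 6.88, was already variable in the cells, and its difference of 2.62 ± 1.09 missed the threshold (adjusted p = 0.075). It passed without the eighth tumour (3.05, adjusted p = 0.019) and without the third sample of cells (3.54, 0.047). Sprr1b, Sprr3 and Krtdap were at or below 4.21 in both.

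Among other structure genes, 11 of 19 were higher and 1 lower (median 1.47, all genes 0.14), with Tchh 7.14 ± 0.491 and Sprr2a1 5 ± 0.46 higher and the protease inhibitor Csta1 at -4.17. Enzymes were higher in 4 of 10 and lower in 2, with Spink5 at -4.3, keratins higher in 3 of 8, adhesion genes in 4 of 9, and transcription factors higher in 2 of 15 and lower in 3, including Fosl1 (-2.67) and Junb (-2.45), subunits of AP-1. Prostate luminal genes were lower in 5 of 5 (median -8), with a level of 12.94 to 13.31 in cells and 4.12 to 9.85 in tumours. Seminal vesicle genes were lower in 4 of 5, with a level of 11.07 to 13.04 in cells and 2.67 to 12 in tumours, and smooth muscle genes were higher in 3 of 4. The part of these cell types in the result was not tested.

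**Figure D3:**
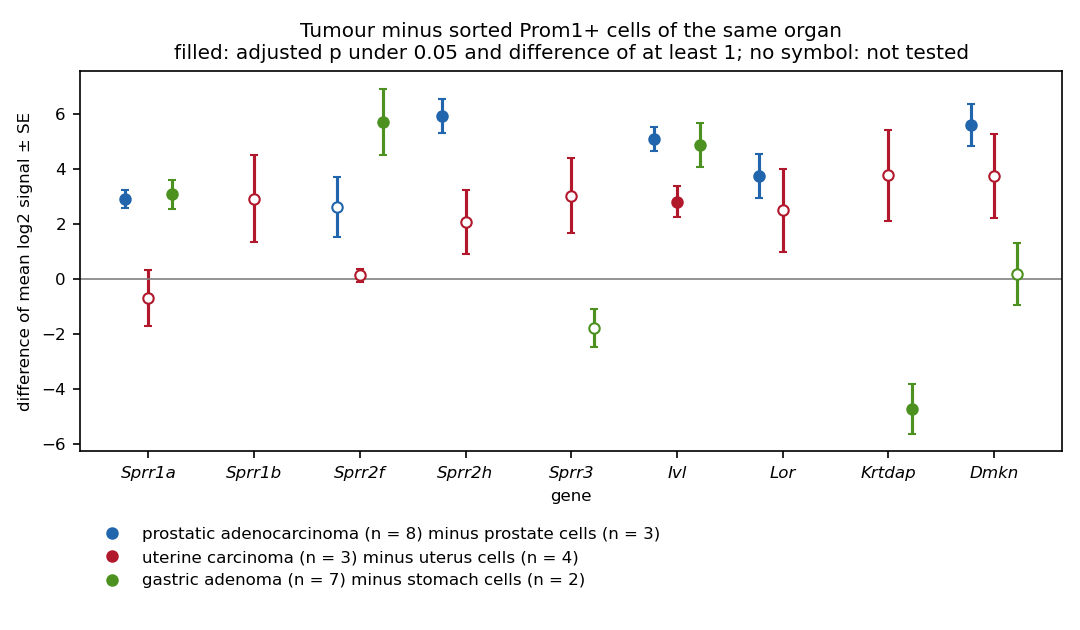
Log2 difference, tumour minus Prom1-sorted cells of the same organ, (y axis, ± SE of the limma fits) for each gene (x axis) in prostate (blue), uterus (red) and gastric adenoma (green); filled symbols passed the call and genes with no symbol were not tested. In prostate Sprr2h stands at 5.94 and Ivl at 5.09, and in uterus Ivl stands at 2.82 and Sprr2f at 0.13.

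Uterus cells were led by Sprr2f and Sprr1a. Sprr2f was 12.83, 12.01, 12.1 and 12.55 there, and Sprr1a 12.04, 10.93, 9.92 and 10.63. Relative to the mean of the other 7 untreated organs these were the 2 members called higher and none was called lower, of 5 tested, where 15.3% of 13107 genes were called higher and 7.38% lower. The differences were 8.99 ± 0.274 for Sprr2f and 5.6 ± 0.54 for Sprr1a (limma adjusted p = 2.3e-10). Beside them, Sprr2h, next to Sprr2f in the genome, was 5.04, 3.69, 3.44 and 3.63 in the same cells.

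Dmkn was 5.35, 5.28, 3.41 and 5.3 in uterus cells, 0.86 ± 0.251 above the other organs (limma adjusted p = 0.0062), under the size a call requires. Without the third sample it was 1.34 (adjusted p = 2.6e-05), which passes. Sprr1b, Sprr3, Ivl, Lor and Krtdap were at or below 3.52 in every uterus sample. Of the other envelope structure genes 5 of 17 were higher and 1 lower, including Sprr2d (3.84 ± 0.354), Sprr2a1 (2.7) and Anxa1 (2.81), and Padi1, which deiminates envelope proteins, was 7.06 ± 0.164 higher. Transcription factors were higher in 6 of 14 and lower in 4, with Fosl1 (2.78), Klf4 (2.29) and Junb (2.11) higher, and keratins were higher in 3 of 11. Leukocyte genes (6 of 8), fibroblast genes (6 of 6), smooth muscle genes (4 of 4) and uterine epithelial genes (4 of 5) were higher in the same cells, with the pan-leukocyte gene Ptprc at 11.43, 11.15, 11.49 and 11.28. Their part in the members' values was not tested.

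Uterine carcinomas had Sprr2f at 12.79, 12.69 and 12.04, and it was 12.83 in the abdominal and 12.29 in the liver metastasis. The difference from uterus cells was 0.13 ± 0.248 (limma adjusted p = 0.7). Sprr1a was 11.18, 7.4 and 11.95 in the carcinomas, -0.7 ± 1.02 from the cells (adjusted p = 0.62). Neither gene was called, and the second carcinoma stood apart in Sprr1a. As in prostate, handling and group cannot be told apart when the carcinomas are set against sorted cells.

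The 3 uterine carcinomas were otherwise unlike each other. The third had Sprr1b at 10.11, Sprr3 at 10.11, Lor at 10.15 and Krtdap at 11.34, whereas the first had 3.89, 5.01, 2.58 and 5.77 and the second 2.42, 3.24, 4.66 and 2.94. Sprr2h was 5.8, 3.27 and 9.02 and Dmkn 10.46, 4.23 and 11.09, in the same order of tumours from the first on. In the third the epidermal keratin genes Krt1 and Krt10 were 9.07 and 9.56 and Flg was 7.64, against 4.23, 5.56 and 2.61 in the first, although both had the mucosal keratin Krt13 (9.2 and 9.56) and Krt6a (9.61 and 9.92). The second had Krt13 at 3.56 and Krt6a at 3.56, and the mean of 10 squamous epithelium genes was 4.38 to 8.81 over the 3 tumours.

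Ivl was called higher in uterine carcinomas, at 5.25, 4.89 and 7.44, by 2.82 ± 0.574 (limma adjusted p = 0.0098), and was the 1 member called of 9 tested with none lower, where 8.57% of 10906 genes were called higher and 10.1% lower. Sprr1b, Sprr2h, Sprr3, Ivl, Lor and Krtdap passed the floor through the carcinomas alone, so their differences could only be upward. Without the second carcinoma 5 members were called, with Dmkn at 5.93 (adjusted p = 0.0013), Krtdap at 5.64 (0.026), Sprr3 at 4.48 (0.04), Sprr2h at 3.46 (0.034) and Ivl at 3.3 (0.0099), and Sprr1a turned to 0.69 (0.38). Without the first carcinoma 2 were called, Lor being added at 4.1 (adjusted p = 0.049). With all 3, Dmkn stood at 3.75 ± 1.52 (adjusted p = 0.094), Krtdap at 3.77 ± 1.65 (0.12) and Sprr1b at 2.92 ± 1.58 (0.19). Lor, at 2.5 ± 1.51 (adjusted p = 0.23), was likewise not called.

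The metastases of uterine carcinoma, 1 in each site, held Dmkn at 10.31 in abdomen and 11.27 in liver and Ivl at 6.55 and 10.04. Sprr1b was 2.91 and 6.68, Sprr3 3.73 and 6.56, and Krtdap 5.41 and 8.29. Lor was 2.5 and 2.51, against 2.58 in the first, 4.66 in the second and 10.15 in the third primary tumour. In other structure genes 4 of 22 were higher in the carcinomas than in the cells and none lower (median 1.8, all genes 0.16), and keratins were higher in 2 of 11 and lower in 1, with Krt14 at 4.11 ± 1.04 and Krt5 at 2.66. Transcription factors were higher in 3 of 14 and lower in 4, with Junb at -4.35 ± 0.157, and leukocyte genes were lower in 4 of 6.

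**Figure D4:**
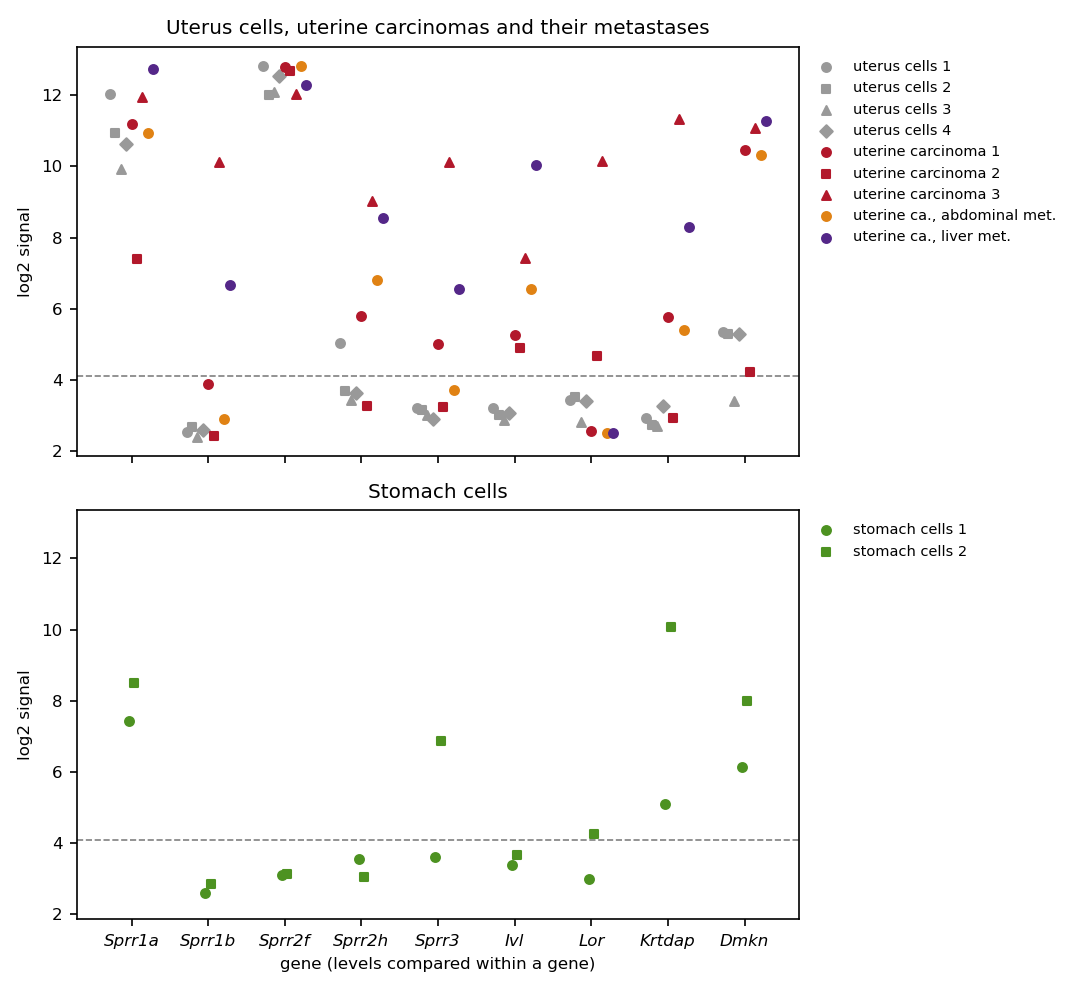
Log2 expression (y axis) of the 9 genes (x axis) in each sample of uterus cells, uterine carcinoma and its metastases (upper panel) and of stomach cells (lower panel), with a dashed line at the floor of 4.1. Sprr2f lies between 12.01 and 12.83 in every uterine sample, and Krtdap is 5.1 and 10.06 in the stomach samples.

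The step from sorted cells to tumour was set between prostate and uterus by the interaction of organ and tumour. It was larger in prostate for Sprr1a (3.61 ± 1.02, limma adjusted p = 0.017), Sprr2h (3.86 ± 1.32, 0.041) and Ivl (2.28 ± 0.731, 0.032), 3 of 9 tested with none smaller, where 10.2% of 11593 genes were called larger and 8.34% smaller. Sprr2h and Ivl lay below the floor in the cells of both organs, with means of 3 and 3.95 for Sprr2h and 2.98 and 3.04 for Ivl, so their values restate the tumour levels. Sprr1a was above it in all 4 groups. Sprr3 (-3.27, 0.068), Krtdap (-3.48, 0.11) and Sprr1b (-2.61, 0.21) were not called, and they too lay below the floor in the cells of both organs. Without the second uterine carcinoma all 3 were called smaller, Sprr3 at -4.71 (adjusted p = 0.006), Krtdap at -5.35 (0.0059) and Sprr1b at -4.14 (0.035), while Sprr1a was 2.22 (0.026) and Sprr2h 2.48 (0.13). Without the third, Lor was called larger at 3.43 (adjusted p = 0.049). Lor too lay below the floor in the cells of both organs, with means of 2.92 and 3.3, so this value restates the tumour levels. The Sprr2h call was lost in 14 of 18 fits that left out 1 sample and the Ivl call in 5, and without the second sample of prostate cells Sprr1a was 3.15 (adjusted p = 0.059). Of other structure genes 4 of 25 were larger in prostate and 2 smaller.

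The 2 samples of stomach cells differed from each other. Krtdap was 5.1 and 10.06, Sprr3 3.62 and 6.86, Dmkn 6.14 and 7.98, and Sprr1a 7.44 and 8.51, each higher in the second. The second was also higher in keratins of the squamous forestomach and skin, with Krt5 at 5.1 and 7.45, Krt13 at 3.71 and 7.98 and Krt1 at 4.16 and 6.51, and the mean of 10 squamous epithelium genes was 4.19 and 6.62. Gastric glandular genes had a mean of 12.2 to 12.96. The mouse stomach has a squamous forestomach beside its glandular part, and the labels do not say which was dissociated.

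Against the other 7 untreated organs, Sprr1a (2.28 ± 0.73, limma adjusted p = 0.019), Sprr3 (2.08 ± 0.336, 1.3e-05), Krtdap (4.48 ± 0.464, 2e-09) and Dmkn (3.4 ± 0.34, 9e-10) were higher in stomach cells. Sprr3 and Krtdap passed the floor through stomach cells alone, every other untreated organ having a mean of 3.48 or less for Sprr3 and 3.25 or less for Krtdap, so these 2 were bound to differ and their calls add no support. The calls are 4 of 5 tested, where 9.08% of 13107 genes were called higher and 10% lower. Sprr2f was called lower, at -1.59 ± 0.371 (adjusted p = 0.0015), but was -0.31 (adjusted p = 0.58) when uterus, whose Sprr2f enters that mean, was left out, an alternative added after seeing the data. Without the second stomach sample 2 members were called higher, and Sprr1a was 1.74 (adjusted p = 0.26), and without the first it was 2.82 (0.069). Krtdap was 1.99 without the second sample and 6.96 without the first, and Sprr3 was 3.7 without the first and below the floor without the second. This comparison and that of uterus share the other organs. Squamous keratins were higher in 8 of 11 and lower in 1 (median 1.59, all genes -0.02), with Krt6b at 2.98, Krt13 at 2.26 and Krt1 at 1.95, and squamous epithelium genes in 7 of 8. The structure list had Sprr2a1 (6.3 ± 0.689) higher in 1 of 17 and none lower, and gastric glandular genes were higher in 8 of 8.

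Gastric adenomas, set against stomach cells, were higher in Sprr1a, Sprr2f and Ivl and lower in Krtdap, 3 and 1 of 6 tested, where 8.07% of 10960 genes were called higher and 3.07% lower. Sprr1a ranged from 9.72 over 11.07 to 12.08 in 7 adenomas, 3.08 ± 0.536 higher (limma adjusted p = 0.006). Sprr2f ranged from 5.95 over 9.4 to 10.99 against 3.1 and 3.13 in the cells, 5.73 ± 1.2 higher (0.013). Ivl ranged from 6.33 over 8.89 to 10.05 against 3.4 and 3.68, 4.88 ± 0.802 higher (0.0051). No adenoma overlapped the cells in these 3 genes, but the share of all genes without overlap was not counted. Sprr2f and Ivl passed the floor through the adenomas alone, so their differences could only be upward.

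Krtdap was 2.77 to 2.99 in the adenomas and -4.72 ± 0.908 from the cells (limma adjusted p = 0.0091), but it passed the floor through the stomach cells alone and was bound to be lower. It was -7.21 without the first stomach sample and -2.24 without the second. Dmkn differed by 0.18 ± 1.13 (adjusted p = 0.93). Without the first stomach sample, Sprr1a was 2.55, Sprr2f 5.72 and Sprr3 -3.41, and without the second, Sprr2f was 5.74. The Sprr1a call was lost without the first sample and the Sprr2f call without either, each fit resting on 1 sample of stomach cells. Of the other lists, 1 of 15 structure genes was higher (Ppl, the periplakin gene, 2.26), and 2 of 11 keratins were lower (Krt1 -1.89, Krt10 -1.41). Smooth muscle genes (3 of 4) and fibroblast genes (2 of 4) were higher in the adenomas, and handling and group cannot be told apart here either.

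Among the 5 members tested, Sprr2f had the largest difference between gastric adenocarcinomas and adenomas. Sprr2f was 2.84, 2.7, 2.69 and 2.95 in the adenocarcinomas, without overlap with the adenomas, and -6.05 ± 0.734 from them (limma adjusted p = 6.1e-09). It passed the floor through the adenomas alone and was bound to be lower. Dmkn was lower too, at 3.52, 5.75, 4.31 and 5.18 (-2.55 ± 0.932, limma adjusted p = 0.023). Lor was higher at 3.24, 6.03, 5.51 and 3.88 (1.69 ± 0.691, limma adjusted p = 0.042). Lor passed the floor through the adenocarcinomas alone, so its difference could only be upward. The calls are 1 higher and 2 lower of 5 tested, where 13.7% of 10968 genes were called higher and 11.4% lower. The Lor call was lost in 8 of 11 fits that left out 1 sample and the Dmkn call in 3 of 11.

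Sprr1a, at 10.09, 10.24, 11.64 and 12.68 in the adenocarcinomas, was 0.1 ± 0.736 from the adenomas (limma adjusted p = 0.92), and Ivl, at 6.7, 6.54, 9.05 and 9.71, was -0.42 ± 0.682 (0.64). The abdominal and liver metastases had Sprr1a at 10.97 and 9.91, Ivl at 7.82 and 6.15 and Lor at 6.91 and 6.31. Other structure genes were higher in 1 of 12 and lower in 4 (median 0, all genes 0.09), with Sprr2a1 at -4.8 ± 0.599, as were keratins lower in 6 of 10, transcription factors in 7 of 13 with 3 higher, and adhesion genes in 3 of 7, with Dsc2 at -4.34. Gastric glandular genes were lower in 8 of 8, with a level of 5.02 to 7.63 in adenocarcinomas and 10.54 to 13.01 in adenomas, and leukocyte and fibroblast genes were each higher in 3. Squamous epithelium genes had a level of 3.35 to 3.69 in adenocarcinomas and 3.43 to 6.73 in adenomas. The part of these cells in the members' values was not tested.

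In liver cells Sprr1a was the member whose group mean passed the floor. The other 8 were at or below 3.71 in every DDC sample, and the second untreated sample had Sprr2f at 4.23 and Sprr2h at 4.2. Sprr1a was 3.34, 4.66, 3.35, 5.18 and 4.07 in 5 untreated samples and 3.57, 3.48 and 4.12 in 3 neonatal samples, and from 5.57 over a median of 10.45 to 11.12 in 9 DDC samples. No DDC sample overlapped either group, the next lowest being 8.44. It was 5.43 ± 0.556 higher than untreated (limma adjusted p = 4.2e-09) and 5.83 ± 0.664 higher than neonatal (2.3e-08), each 1 called higher of 1 tested. Against neonatal cells, with a mean of 3.72, it passed the floor through the DDC samples alone and was bound to differ. Of 10919 genes 16.2% were called higher and 5.49% lower against untreated, and of 10891 genes 4.36% and 8.15% against neonatal, with the DDC samples shared. Without the second DDC sample the differences were 5.93 and 6.33.

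Of 12 other structure genes 4 were higher in DDC cells than untreated and none lower: Ppl (2.9 ± 0.478), which anchors the envelope to keratin, Cstb (2.7 ± 0.222), a cathepsin inhibitor, Anxa1 (1.39) and S100a10 (1.3). Transcription factors were higher in 2 of 8 and lower in 1, adhesion genes higher in 1 of 7, keratins lower in 1 of 2 and enzymes lower in 1 of 4. Squamous epithelium genes had a level of 3.12 to 3.49 in DDC and 3.39 to 3.57 in untreated cells. Cholangiocyte genes were higher in 3 of 4 and leukocyte genes in 3 of 8 with 1 lower, with a mean leukocyte level of 6.28 to 9.31 against 5.19 to 8.15. The 3 prime minus 5 prime log2 signal of actin control probes, an index of RNA integrity, was 0.54 to 1.39 in DDC and 1.05 to 1.73 in untreated cells. For Gapdh control probes it was 0.25 to 0.55 in DDC and 0.9 to 1.23 in untreated cells, without overlap. The part of these in the Sprr1a difference was not tested. Against neonatal liver 3 of 10 structure genes were higher and cholangiocyte genes lower in 4.

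Within the 9 DDC samples, Sprr1a was set against 5 other genes, with exact permutation tests and Benjamini-Hochberg adjustment over the 5. Lcn2, the acute-phase lipocalin, had r = 0.93 (two-sided exact permutation p = 0.0031, adjusted 0.015) and rho = 0.89 (0.0025, adjusted 0.012), and r = 0.75 (exact p = 0.025, n = 7) without the 2 samples farthest from its median. Prom1 had r = 0.75 (exact p = 0.014, adjusted 0.023) but rho = 0.49 (adjusted 0.31) and r = 0.06 without 2 samples, so that relation rests on those samples. Alb, a hepatocyte product, had r = 0.82 (exact p = 0.007, adjusted 0.018) and rho = 0.77 (adjusted 0.045), and r = 0.48 (p = 0.3) without 2 samples. Krt19, of bile ducts, at r = 0.38, and Mki67, of dividing cells, at r = 0.37, had adjusted exact p-values of 0.36. The actin index of RNA integrity also varied over these samples. It was 0.54 in the first and second, which had the lowest Sprr1a (8.44 and 5.57), and 0.71 to 1.39 in the others. The relation of RNA integrity to Sprr1a was not tested. In the 14 liver carcinomas none of the same 5 relations passed, with r from -0.25 to 0.24 (permutation p adjusted 0.87 each, 1e+05 resamples).

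**Figure D5:**
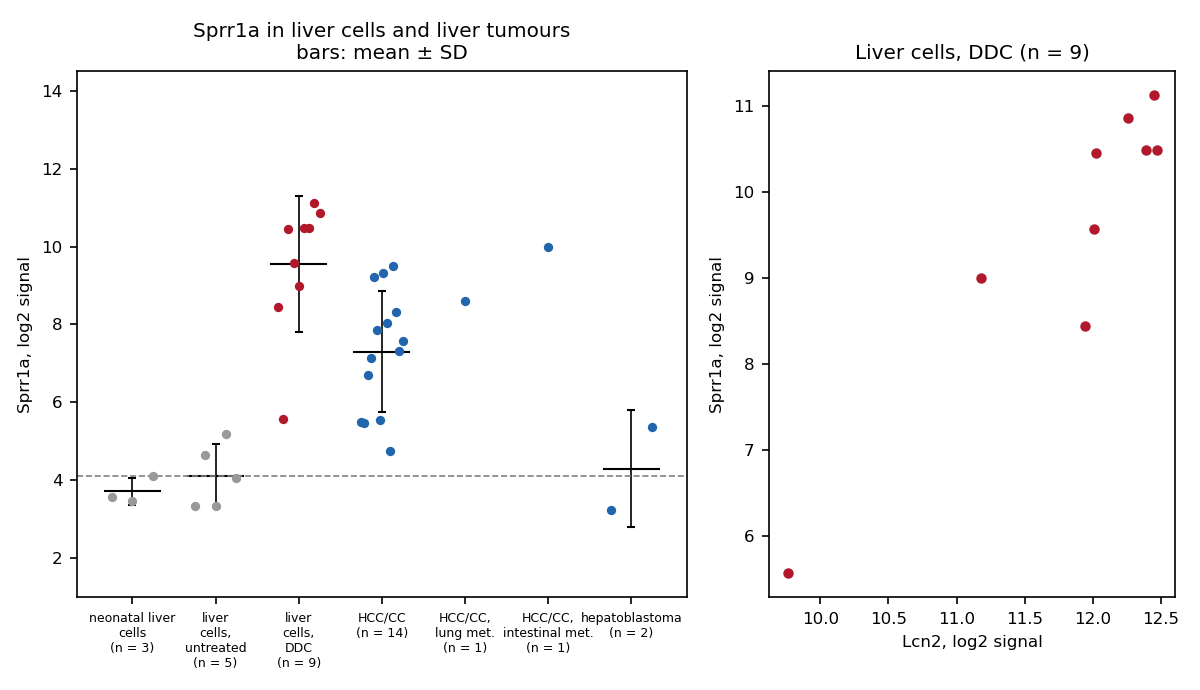
Sprr1a log2 expression (y axes) in each sample of liver cells, liver carcinomas (HCC/CC), their metastases and hepatoblastomas (left, bars for the mean ± SD, dashed line at 4.1), and against Lcn2 log2 expression in the 9 DDC samples (right). The DDC samples lie between 5.57 and 11.12 and the untreated samples between 3.34 and 5.18.

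The liver carcinomas had Sprr1a from 4.74 over a median of 7.45 to 9.49, and it was 8.6 in the lung and 10 in the intestinal metastasis. The difference was 3.18 ± 0.679 from untreated cells (limma adjusted p = 0.0011), 1 called higher of 1 tested, where 17.4% of 11075 genes were called higher and 6.23% lower. Against DDC cells Sprr1a in the carcinomas was -2.25 ± 0.652 (adjusted p = 0.013), 1 called lower of 1 tested, where 5% of 10819 genes were called higher and 4.99% lower. Without the second DDC sample it was -2.75 (adjusted p = 0.0018). The 2 comparisons share the carcinomas, and handling and group cannot be told apart in either. The Gapdh index of RNA integrity was 0.15 to 0.7 in the carcinomas and 0.9 to 1.23 in untreated cells, without overlap. The actin index was 0.67 to 1.29 and 1.05 to 1.73, and the part of RNA integrity was not tested.

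Most other members were at the floor in liver carcinomas, and single tumours departed from it. Dmkn was 7.93 in the second, 4.76 in the third and 6.91 in the eleventh tumour, with 6.73 and 6.01 in the lung and intestinal metastases, and Ivl was 5.76 in the eighth. Structure genes were higher in 4 of 12 against untreated cells, with Ppl at 2.99 ± 0.461 and Cstb at 2.42 ± 0.293. Against untreated cells, cholangiocyte genes were higher in 2 of 5, fibroblast genes in 4 of 4 and leukocyte genes in 3 of 8 with 1 lower, and endothelial genes were lower in 3 of 5 (median -1.49). Against DDC cells, fibroblast genes were higher in 3 of 4 (median 1.53), endothelial genes lower in 3 of 5 (median -1.83) and leukocyte genes lower in 1 of 7. The part of these cells in the Sprr1a differences was not tested.

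Outside these comparisons, Dmkn was high in bronchopulmonary adenocarcinomas, at 11.55 and 11.92, where lung cells had 5.35, 4.85, 4.08 and 5.23. Ivl was 8.14 and 3.65 in the same 2 tumours, and Sprr1a 5.36 and 3.8. The index of RNA integrity also differed between them, at 0.58 and 1.36 for actin and 0.42 and 1.03 for Gapdh. Small intestinal adenomas had Sprr2f at 6.38, 6.09 and 7.57 and Dmkn at 7.93, 4.73 and 7.38. Among large intestinal adenomas Sprr1a was 9.94, 8.83, 7.93, 8.67 and 10.58, with Sprr2h at 7.83 in the fifth. No test was made in these groups.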

How the data were processed

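Expression in 103 samples was measured on Affymetrix arrays. The authors deposited log2 values for 45141 probe sets, processed with Partek 6.6 per the submitters' processing notes; their normalization is not given in the sources used here. Medians of single arrays were 3.82 to 4.24, and the number of samples limits precision. The members and lists were chosen with earlier results of these data known.

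Probe sets with 1 gene symbol (28898; 551 had several, 15588 none, 104 were controls) were reduced to the brightest per gene. Genes with a mean above the 40th percentile in at least 1 compared group were tested with limma 3.58.1 (R 4.3.3; moderated test with trend, Benjamini-Hochberg adjusted p under 0.05, log2 difference at least 1). The 40 sorted samples shared a fit, as did 55 primary tumours (periorbital left out); tumours against cells used the compared groups alone. Genes named are the members, the nearest profiles and the leading called genes of each list; marker genes named for single samples were chosen after their values were seen. Groups follow the labels, and the fits were also checked on simulated data. Alternatives were another filter, scaling, probe set choice, fit and leaving out each sample. No 2 arrays were identical; the closest pair had r = 0.993. Promoters are RefSeq's (GRCm38.p6). Figures used Python 3.11.15 and matplotlib 3.10.9.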

Additional observations from a re-analysis of the deposited data

Results flagged for a closer look

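Among the 31 combinations of member and group with 4 to 10 samples that were examined, 2 held a sample apart from the rest, and chance marks about 1 in 20 such combinations. Dmkn was 3.41 in the third sample of uterus cells, against 5.28 to 5.35 in the others, and without it Dmkn was called higher in uterus cells than in other organs (1.34 in place of 0.86). Sprr1a was 5.57 in the second sample of DDC liver cells, against 8.44 or more in the others. That sample also had the lowest Lcn2 (9.76) of its group. Its 3 prime minus 5 prime actin difference (0.54) was the lowest too, shared with the first sample, whose Sprr1a, 8.44, was the next lowest of the group. A lower difference means less bias to the 3 prime end. The other samples of the group had 0.71 to 1.39, and the relation to Sprr1a was not tested.

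The step from sorted cells to tumour differed between prostate and uterus, in the interaction test of limma, for Sprr1a (3.61, adjusted p = 0.017), Sprr2h (3.86, adjusted p = 0.041) and Ivl (2.28, adjusted p = 0.032). Sprr2h (means 3 and 3.95) and Ivl (2.98 and 3.04) were below the floor in the cells of both organs and passed it through the tumours alone, so their values restate the tumour levels. Without the second uterine carcinoma Sprr1a was 2.22 (adjusted p = 0.026). Handling and RNA extraction differed between cells and tumours in both organs.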

How the results depend on the processing

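Of the results that answer a comparison, 219 values under alternatives stayed within the limits set and 11 moved, and of single genes 532 stayed, 9 lost and 11 gained a call and 4 reversed. With median centring Sprr1b and Krtdap between perineal and perioral tumours became 0.02 and 0.01 and Sprr1b in prostatic against other internal carcinomas became -0.01, and with quantile scaling Dmkn in gastric adenomas against stomach cells became -0.06; none was called. The members called higher in gastric adenocarcinomas against adenomas fell to 0 with no filter, a 60th percentile filter, quantile scaling, median centring or no multi-transcript probe sets, since that count rests on Lor. Without those probe sets 3 members were higher in prostatic tumours than in prostate cells. In uterine carcinomas against cells 0 were higher with the 60th percentile filter and 7 in a fit of all samples, which also gave 2 lower in gastric adenomas against stomach cells and 3 smaller in the interaction. Leaving uterus out of the stomach comparison, chosen after seeing the data, gave 0 lower. The causes were not tested.

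Leaving out 1 sample at a time, the members called higher ranged from 0 to 1 between perineal and perioral tumours, 0 to 1 in gastric adenocarcinomas (lower 1 to 2), 1 to 5 in uterine carcinomas, 1 to 3 in gastric adenomas (lower 1 to 3), 0 to 4 in the interaction (smaller 0 to 3) and 2 to 4 in stomach cells. Those lower ranged from 0 to 1 in prostatic tumours and in uterus cells. Values that changed sign, none called with all samples, were Sprr1b (-0.19 to 0.1), Sprr3 (-0.05 to 1.36) and Krtdap (-0.15 to 0.04) between perineal and perioral tumours, Sprr1b (-0.35 to 0.12) and Krtdap (-0.86 to 0.19) in prostatic tumours, Sprr1a (-0.4 to 0.46) and Ivl (-0.99 to 0.07) in gastric adenocarcinomas, Sprr1a (-1.59 to 0.69) and Sprr2f (-0.01 to 0.37) in uterine carcinomas, Dmkn in gastric adenomas (-0.73 to 1.1), and Lor (-0.35 to 3.43) and Dmkn (-0.33 to 3.09) in the interaction. Correlations of Sprr1a ranged from -0.14 to 0.59 with Krt19 in DDC cells, and in liver carcinomas from 0.03 to 0.61 with Krt19, -0.38 to 0.01 with Lcn2, -0.49 to 0.24 with Alb and -0.09 to 0.38 with Mki67.

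Quantile scaling moved the share of called genes that were higher from 58.8% to 45.3% in prostatic tumours against cells, 72.5% to 49.7% in gastric adenomas against cells, 55% to 43.2% in the interaction, 73.6% to 59.2% in liver carcinomas and 74.7% to 59.5% in DDC cells against untreated cells. The median difference over tested genes went from 0.14 to -0.03, 0.11 to -0.09, 0.04 to -0.09, 0.3 to 0.11 and 0.25 to 0.07 in the same order, and from 0.08 to -0.07 in uterus cells. No paired analysis was possible because replicate numbers were given in order of accession and pair no samples.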
